A study of Danio rerio with 8 samples.

Results

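The genes described here are 32 zebrafish genes that encode the enzymes from hexokinase to lactate dehydrogenase and the glucose transporter GLUT1. They were taken by symbol from the 25309 entries of the deposited tables, and all 32 were found. Of these, 30 reached a mean of 1 CPM (a gene's reads after scaling by those of its library) in at least 1 group and were tested. gpib and pfkmb did not: gpib was at or under 1.08 CPM and pfkmb at or under 0.758 CPM in every library. The genes had been chosen by their place in the pathway, with earlier results of these data known.

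Glycolysis splits glucose into pyruvate and yields ATP without oxygen, and lactate dehydrogenase turns the pyruvate into lactate and back. Most steps can be run by several isozymes, and in mammals some of these are best known from skeletal muscle, others from brain. Neurons and glia draw heavily on glucose, and immune cells and growing cells often run glycolysis fast. An extra genome duplication in the ancestor of teleosts, the fish group that includes zebrafish, left many of the genes as a and b copies.

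RNA-seq was done on spinal cord of adult zebrafish of both sexes, 3 to 9 months old. Homozygous mstnb mutants (-/-), which carry a mutation in 1 of the zebrafish myostatin genes, were set against their wild-type siblings. Each genotype was sampled uninjured and at 1 week after complete transection of the cord (1 wpi), 4 mm caudal to the brainstem, from a 2 mm piece that held the lesion and the cord next to it. This gave 4 groups of 2 libraries each, uninjured and 1 wpi for either genotype. The labels do not give the mutant allele or the number of fish behind a library, and a p-value here covers no more than the variation among these libraries, part of which may be technical. The injured wild-type library whose column carries the number 3, a number no label has, was placed in its group by its name and is called wild type 1 wpi 3.

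Depth ranged from 20082743 to 33410514 reads, so that 1 read was worth at most 0.0498 CPM. mstnb itself stood at 42.2 to 74.8 CPM in the 4 wild-type and at 10.2 to 26.4 CPM in the 4 mutant libraries, without overlap. Markers of cells from outside the cord were present. Summed over 28 markers, skeletal muscle transcripts stood at 8556 to 31442 CPM in the uninjured and 1703 to 4009 CPM in the injured libraries. With injury averaged over genotypes 18 of the 28 markers fell and 1 rose, against 12.2% of all genes called in the same test. The 17 neuron markers summed to 5752 to 16762 CPM in the uninjured and 10305 to 12184 CPM in the injured libraries, with the lowest sums in mutant uninjured 1 and wild type uninjured 1. The 13 macrophage and microglia markers summed to 1691 to 2815 CPM in the uninjured and 15976 to 21382 CPM in the injured libraries. The 14 oocyte markers reached 1557 CPM in mutant 1 wpi 1, 1268 CPM in wild type uninjured 1 and 448 CPM in mutant 1 wpi 2, against 18.8 to 218 CPM in the other 5 libraries. In such tissue pieces, fewer cells of a type and less RNA per cell cannot be told apart.

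Together the 32 genes took 0.816% to 1.40% of the reads of a library, a sum that was lowest in mutant uninjured 1 (8157 CPM) and highest in mutant 1 wpi 1 (13952 CPM). After injury the clearest change was a rise of hk2, a hexokinase, in both genotypes, and a fall of pgam2, the muscle form of phosphoglycerate mutase, and pkmb, a pyruvate kinase. eno1b, gpia and slc2a1b also rose, by less, in calls lost with another scaling of the libraries (TMM) and in another test (edgeR). The hk2 call within mutants was lost in both of these as well, and the falls of pgam2 and pkmb were not called within mutants. gapdh was called lower after injury in wild type only, a call lost in edgeR. Of the genes with most reads at their steps, not corrected for gene length, gpia and slc2a1b passed the main test (limma). aldocb, gapdhs, eno2, pkma and ldhba did not pass it in any comparison, and no gene of the set passed it in a comparison of mutants with wild type. The authors' deposited tests called aldocb and eno2 lower for injury in wild type, but not gapdhs, pkma or ldhba. They also called genes of the set for genotype, as given below.

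**Figure D1:**
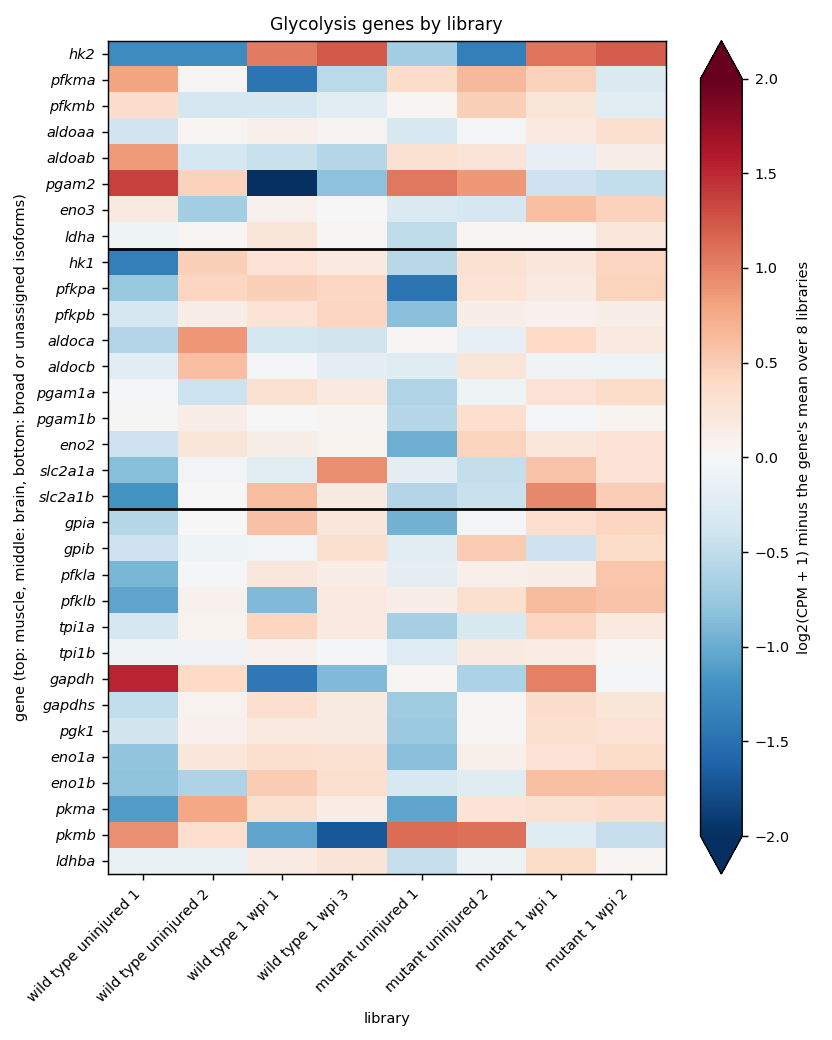
Level of the 32 genes in each of the 8 libraries, as log2(CPM + 1) minus the gene's mean over the libraries (colour, red higher), with the isozymes grouped by the mammalian tissue they are best known from. hk2 is red in the 4 injured libraries, pgam2 and pkmb are blue in them, and hk1, pfkpa, pkma and eno2 are blue in the uninjured libraries numbered 1 of both genotypes.

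A test was made for each comparison with limma on log2(CPM + 1) over all 19114 genes tested, and a gene was called at a Benjamini-Hochberg adjusted p under 0.05. The median injury change of all these genes was not 0: it was 0.29 in wild type and 0.37 in mutants on the log2 scale, and TMM scaling, which equalises the bulk of genes between libraries, moved it to 0.05 and 0.01. Injury changes and the interaction are therefore given relative to that median, with the limma standard error (SE), while adjusted p-values and calls belong to the change before this shift. Genotype differences are given as fitted.

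In wild type, 5 of the 30 genes passed, 2 higher and 3 lower at 1 wpi, against 3.86% of all genes. In mutants 1 of 30 passed, against 3.19%. With injury averaged over both genotypes, 6 of 30 passed, 4 higher and 2 lower, against 12.2%. The median change of the 30 genes relative to that of all genes was 0.05 in wild type, 0.14 in mutants and 0.16 averaged. The percentages of all genes belong to the fit with every library. The counts that follow come from other fits and cannot be set against them, so no move can be read as particular to this set. Calls in 1 genotype leaned on single libraries: the wild-type count was 2 without wild type uninjured 1, 11 without wild type uninjured 2, 0 once wild type 1 wpi 1 was left out and 1 after leaving out wild type 1 wpi 3. The mutant count was 6 without either wild type uninjured library and 0 without either mutant 1 wpi library. The averaged count was 17 without wild type uninjured 2 and 12 without mutant uninjured 2.

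Glucose enters through GLUT1, the transporter of the blood-brain barrier in mammals, which zebrafish encode in slc2a1a and slc2a1b. In wild-type cord slc2a1b measured 3.12 and 8.43 CPM intact and 13.5 and 9.77 CPM at 1 wpi. The mutant values were 5.30 and 5.95 CPM intact and 17.5 and 12.4 CPM at 1 wpi. All 4 injured libraries lay above all 4 uninjured ones in CPM as deposited, an order shown by 21.3% of all genes. With TMM-scaled CPM hk2 alone of the 30 genes kept such an order. Averaged over genotypes slc2a1b rose by 0.81 ± 0.32 (relative log2 ± SE, limma adjusted p = 0.0383), but the relative changes within wild type, 0.72 ± 0.45, and within mutants, 0.88 ± 0.45, did not pass (adjusted p = 0.244 and 0.169). In edgeR and DESeq2 the averaged rise of slc2a1b was not called (adjusted p = 0.142 and 0.0804). slc2a1a was low throughout, at 0.714 to 4.91 CPM, and did not pass. The summed CPM of 8 endothelial markers was 46.4 to 63.1 in the uninjured and 96.9 to 109 in the injured libraries. Averaged over genotypes 1 of the 8 was called higher, near the 12.2% of all genes called. The part of endothelial transcripts in the change of slc2a1b was not tested. The averaged call was lost with TMM scaling (adjusted p = 0.123) and without any 1 of 7 libraries, all but wild type uninjured 2 (highest adjusted p = 0.173). Within a genotype it was called in some fits that left libraries out, in wild type without wild type uninjured 2 (adjusted p = 0.0191) and in mutants without wild type uninjured 1 or 2 (adjusted p = 0.0355 and 0.0377) or without both uninjured libraries numbered 1 (adjusted p = 0.0411).

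Hexokinase traps glucose as glucose 6-phosphate. In mammals hk2 is the form of muscle and of many fast-growing cells. Its wild-type values were 4.19 and 4.2 CPM intact, then 24.4 and 28.0 CPM after transection. The mutant libraries gave 6.76 and 3.79 CPM intact, then 24.9 and 27.6 CPM after transection. The injured libraries lay far above the uninjured ones in both genotypes, and the injured groups of the 2 genotypes overlapped. Group means went from 4.2 ± 0.00178 to 26.2 ± 2.48 CPM in wild type (SD, n = 2 each), a 6.25-fold difference, and from 5.28 ± 2.1 to 26.3 ± 1.90 CPM in mutants, a 4.98-fold difference.

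The rise of hk2 passed in wild type (2.1 ± 0.37, adjusted p = 0.00512), in mutants (1.79 ± 0.37, adjusted p = 0.0107) and averaged (1.96 ± 0.26, adjusted p = 0.000303), on the relative log2 scale in limma. Without any 1 library the averaged adjusted p stayed at or under 0.00481. The wild-type call was lost without wild type 1 wpi 1 or 3 (adjusted p = 0.0756 and 0.095), and the mutant call without mutant 1 wpi 1 or 2 (adjusted p = 0.141 and 0.132) or with TMM scaling (adjusted p = 0.0657). In edgeR the mutant call was also lost (adjusted p = 0.112). hk2 was high in the 4 injured libraries, where muscle transcripts were low, although its mammalian orthologue is a muscle form. Averaged over genotypes, 9 of 13 macrophage and microglia markers were called higher in the same 4 libraries, against 12.2% of all genes called. The part of either cell type in the rise of hk2 was not tested.

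hk1, the main hexokinase of mammalian brain, did not pass. Wild-type libraries gave 17.8 and 66.1 CPM of hk1 without injury and 58.0 and 54.6 CPM after transection. Mutant libraries gave 31.9 and 58.9 CPM without injury and 55.9 and 64.0 CPM after transection. The low values were those of the uninjured libraries numbered 1, and the others lay close together. The share of hexokinase reads from hk2, not corrected for gene length, was 29.7% to 33.9% in the 4 injured libraries. It was 19.0% and 17.5% in the uninjured libraries numbered 1 and 5.97% and 6.04% in those numbered 2. Its 95% Wilson interval, which covers counting error only, was at most ± 3.46 percentage points.

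**Figure D2:**
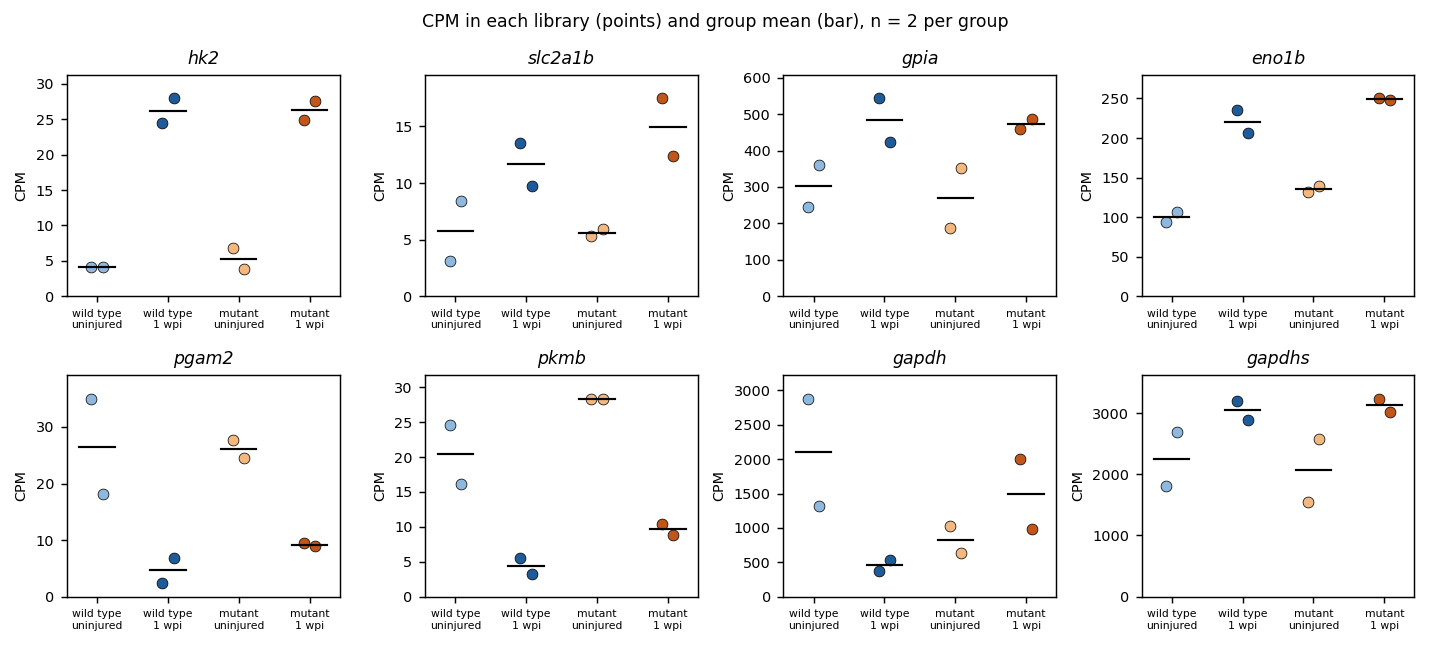
CPM of 8 of the genes in each library (points) with the group mean (bar), n = 2 per group. hk2, slc2a1b, gpia, eno1b and gapdhs are higher in each injured library than in each uninjured one, pgam2 and pkmb are lower, and gapdh overlaps. With TMM-scaled CPM, not drawn, only hk2 of those higher keeps this order, while pgam2 and pkmb stay lower.

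Phosphoglucose isomerase converts glucose 6-phosphate to fructose 6-phosphate, and nearly all of its reads, at least 99.7% in each library, came from gpia. gpia was found at 244 and 359 CPM in intact and 544 and 424 CPM in transected wild-type cord. For mutants the same values were 188 and 352 CPM intact and 460.0 and 488 CPM transected. All injured libraries lay above all uninjured ones. The averaged rise was 0.47 ± 0.23 (relative log2 ± SE) and just passed (adjusted p = 0.0488 in limma). The rise was not called in edgeR or in DESeq2 (adjusted p = 0.23 and 0.179). It did not pass with TMM scaling (adjusted p = 0.208), nor without wild type uninjured 1, mutant uninjured 1 or any 1 injured library (highest adjusted p = 0.204).

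Phosphofructokinase commits sugar to glycolysis, and its subunits come in liver, muscle and platelet types, named l, m and p. pfkpa, a platelet type that mammalian brain also uses, supplied 59.6% to 86.7% of the reads of this step. Uninjured wild type had pfkpa at 78.3 and 179 CPM, and injured wild type at 186 and 178 CPM. Uninjured mutants had 47.9 and 160.2 CPM, and injured mutants 151 and 181 CPM. As for hk1, the 2 low values were those of the uninjured libraries numbered 1, and pfkpa did not pass.

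The muscle type, pfkma, gave 7.05 and 3.74 CPM in intact wild-type cord against 0.697 and 2.21 CPM in transected wild-type cord. Mutant cord gave 5.0 and 6.31 CPM intact against 5.43 and 2.82 CPM transected. The wild-type groups did not overlap, while the mutant groups did. The wild-type difference of -1.69 ± 0.48 (relative log2 ± SE) did not pass (adjusted p = 0.137 in limma), and at 1 wpi pfkma was higher in mutants by 1.09 ± 0.48, which did not pass either (adjusted p = 1.00). Without wild type uninjured 2 the wild-type difference passed (adjusted p = 0.0318), and it passed in DESeq2 (adjusted p = 0.0107). The other phosphofructokinases were low, pfkla at 2.63 to 8.99, pfklb at 6.69 to 23.6 and pfkpb at 5.69 to 15.0 CPM. They did not pass in limma. The authors' deposited tests called pfklb higher in mutants, by 0.73 uninjured and 0.90 at 1 wpi on the log2 scale.

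Aldolase splits fructose 1,6-bisphosphate. aldocb, an orthologue of the brain aldolase C, gave 77.5% to 87.2% of aldolase reads. In wild-type cord aldocb measured 2222 and 3887 CPM intact and 2492 and 2247 CPM at 1 wpi. The mutant values were 2168 and 3037 CPM intact and 2454 and 2405 CPM at 1 wpi. The injured libraries lay inside the range of the uninjured ones. aldoaa, a copy of the muscle aldolase A, ranged from 413 to 677 CPM with every injured library above every uninjured one, but did not pass. aldoab, the other copy of aldolase A, was at 14.2 to 34.1 CPM in the uninjured and 12.1 to 20.3 CPM in the injured libraries, and aldoca was at 1.38 to 5.51 CPM.

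Triosephosphate isomerase interconverts the 2 products. tpi1b gave 77.7% to 86.3% of its reads. Wild-type libraries gave 346 and 347 CPM of tpi1b without injury and 388 and 359 CPM after transection. Mutant libraries gave 307 and 417 CPM without injury and 404 and 376 CPM after transection. These groups overlapped, whereas tpi1a was at 51.8 to 86.6 CPM in the uninjured and at 94.5 to 112 CPM in the injured libraries, and neither passed.

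The glyceraldehyde 3-phosphate dehydrogenase step had the largest fitted genotype differences of the 30 genes. In the wild type, gapdh read 2882 and 1317 CPM before injury, and 370.0 and 539 CPM after it. In mutants it ran the other way, with 1021 and 639.6 CPM uninjured and 1996 and 985 CPM at 1 wpi. The wild-type groups did not overlap and the mutant groups did. In wild type gapdh fell by 2.41 ± 0.43 (relative log2 ± SE, limma adjusted p = 0.0195), while the mutant difference of 0.43 ± 0.43 did not pass. The wild-type fall did not pass in edgeR (adjusted p = 0.0556). The wild-type call was lost without wild type uninjured 1 (adjusted p = 0.0648) and without wild type 1 wpi 1 or 3 (adjusted p = 0.228 and 0.0993).

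The test of the difference between the injury changes of the genotypes gave 2.83 ± 0.61 for gapdh (relative log2 ± SE) and missed the threshold (limma adjusted p = 0.0725). It passed without wild type uninjured 2 (adjusted p = 0.00282) and without mutant 1 wpi 2 (adjusted p = 0.0315). Wild type uninjured 1 and mutant 1 wpi 1, the libraries in which oocyte markers summed highest, had the highest gapdh of their genotypes, and gapdh was lowest in the injured wild type, where all 14 oocyte markers together made 18.8 and 20.7 CPM. Of the 14 markers 9 fell with injury in wild type and 7 rose in mutants, against 3.86% and 3.19% of all genes called. Without wild type uninjured 1 and mutant 1 wpi 1 the wild-type change was -1.56 on the log2 scale before the shift and did not pass. It was the same without wild type uninjured 1 alone, because mutant 1 wpi 1 enters only through the shared estimate of the spread. Wild type uninjured 1 also had the most liver marker transcripts (6066 CPM). The part of oocyte or liver transcripts in the gapdh values was not tested.

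The mammalian namesake of gapdhs is a sperm form. Here gapdhs reached 1804 and 2682 CPM in intact wild-type cord against 3201 and 2888 CPM in transected wild-type cord. Mutant cord reached 1551 and 2575 CPM intact against 3236 and 3022 CPM transected. All injured libraries lay above all uninjured ones, but gapdhs did not pass. Of the reads of this step, gapdh made up 61.5% and 32.9% in wild type before injury and 10.4% and 15.7% after it. In mutants it made up 39.7% and 19.9% uninjured and 38.2% and 24.6% at 1 wpi.

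Phosphoglycerate kinase, the first ATP-yielding enzyme of the pathway, is encoded by pgk1 in this set. pgk1 was found at 252 and 348 CPM in intact and 376 and 369.7 CPM in transected wild-type cord. For mutants the same values were 196 and 334 CPM intact and 409 and 400.5 CPM transected. The groups did not overlap, with the uninjured libraries numbered 1 lowest, and pgk1 did not pass.

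Phosphoglycerate mutase has a brain form, encoded by pgam1a and pgam1b, and a muscle form, pgam2. Uninjured wild type had pgam2 at 35.0 and 18.1 CPM, and injured wild type at 2.44 and 6.88 CPM. Uninjured mutants had 27.8 and 24.5 CPM, and injured mutants 9.45 and 8.86 CPM. All injured libraries lay below all uninjured ones, and the 2 injured mutant libraries lay above the 2 injured wild-type ones. Group means fell from 26.5 ± 12 to 4.66 ± 3.14 CPM in wild type (SD, n = 2 each), where the uninjured mean was 5.70-fold higher. The mutant means were 26.1 ± 2.31 CPM uninjured and 9.15 ± 0.423 CPM at 1 wpi.

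The fall of pgam2 was -2.62 ± 0.45 in wild type (adjusted p = 0.0161) and -2.19 ± 0.32 averaged over genotypes (adjusted p = 0.00327), on the relative log2 scale in limma. The mutant difference of -1.78 ± 0.45 did not pass (adjusted p = 0.120). It passed when wild type uninjured 1 or 2 was left out (adjusted p = 0.0388 and 0.0361), with only the libraries compared (adjusted p = 0.0242), in DESeq2 (adjusted p = 0.00531) and with the replicate block (adjusted p = 0.0193). The wild-type call was lost without wild type uninjured 1 (adjusted p = 0.0546) or wild type 1 wpi 1 (adjusted p = 0.222). Intact libraries gave pgam1a at 117 and 88.3 CPM for wild type and 78.0 and 112 CPM for mutants, and transected libraries at 148 and 137 CPM and 147 and 155 CPM. Its groups did not overlap, in the direction opposite to pgam2, but it did not pass. pgam1b ranged from 65.1 to 123 CPM with the injured libraries inside the range of the uninjured ones. As a share of the reads of the step, pgam2 took 8.49% to 16.2% in the uninjured and 0.98% to 3.77% in the injured libraries.

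**Figure D3:**
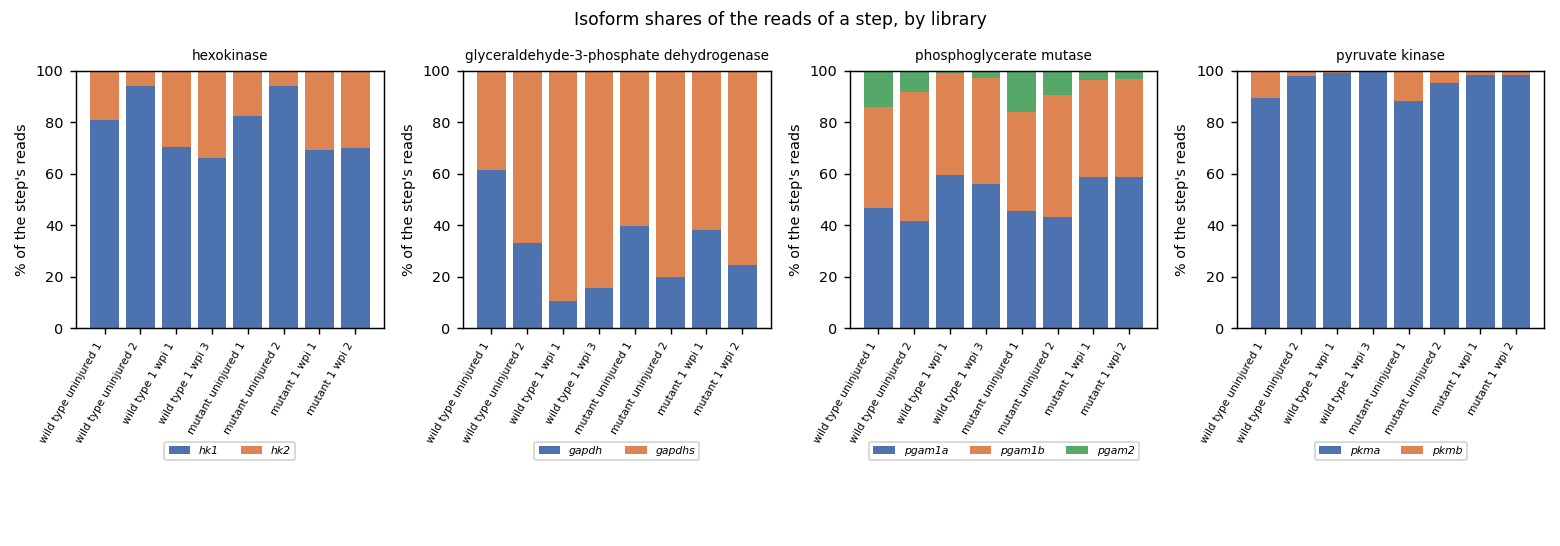
Share of the reads of 4 steps taken by each isozyme gene in each library, as stacked percentages not corrected for gene length. hk2 takes 29.7% to 33.9% of hexokinase reads in the injured libraries, gapdh ranges from 10.4% to 61.5% of its step, and pgam2 and pkmb take at most 3.77% and 1.86% in the injured libraries.

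Enolase makes phosphoenolpyruvate and has a widespread form (eno1a, eno1b), a neuronal form (eno2) and a muscle form (eno3). In wild-type cord eno1b measured 93.9 and 107 CPM intact and 235 and 206 CPM at 1 wpi. The mutant values were 132 and 139 CPM intact and 250.2 and 248 CPM at 1 wpi. In CPM as deposited, replicates lay close together, and all injured libraries were above all uninjured ones. With TMM-scaled CPM the injured and uninjured libraries overlapped. eno1b rose by 0.84 ± 0.25 in wild type (adjusted p = 0.0295) and by 0.69 ± 0.18 averaged (adjusted p = 0.00402), on the relative log2 scale in limma, while the mutant change of 0.51 ± 0.25 did not pass (adjusted p = 0.0866). With TMM scaling neither call was kept (adjusted p = 0.115 and 0.0589), and in edgeR neither was (adjusted p = 0.132 and 0.077). The wild-type call was also lost in DESeq2 (adjusted p = 0.0588). The averaged call held without any 1 library (highest adjusted p = 0.0452), whereas the wild-type call was lost without wild type uninjured 1, wild type 1 wpi 1 or 3, or mutant 1 wpi 1 or 2 (highest adjusted p = 0.334).

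eno2 had the most reads of the enolases on average, not corrected for length. Wild-type libraries gave 346 and 546 CPM of eno2 without injury and 500.4 and 484 CPM after transection. Mutant libraries gave 234 and 627 CPM without injury and 536 and 564 CPM after transection, so the uninjured mutant libraries enclosed the injured ones. eno1a showed the same 2 low uninjured libraries within 231 to 538 CPM. eno3 ranged from 184 to 449 CPM, highest in the injured mutants. None of these 3 passed.

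Pyruvate kinase makes pyruvate, and both copies in the set are of its M type. pkmb was found at 24.6 and 16.2 CPM in intact and 5.53 and 3.18 CPM in transected wild-type cord. For mutants the same values were 28.4 and 28.3 CPM intact and 10.5 and 8.86 CPM transected. All injured libraries lay below all uninjured ones, and both groups of mutants lay above the matching wild-type group. pkmb fell by 2.29 ± 0.38 in wild type (adjusted p = 0.0135) and by 2.05 ± 0.27 averaged (adjusted p = 0.00175), on the relative log2 scale in limma. The mutant difference of -1.83 ± 0.38 did not pass (adjusted p = 0.0583). It passed in several alternatives, among them DESeq2 (adjusted p = 0.000486) and the fits without wild type uninjured 1 or 2 (adjusted p = 0.0157 and 0.0143). The wild-type call was lost without wild type 1 wpi 1 or 3 (adjusted p = 0.0763 and 0.206).

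pkma supplied 88.3% to 99.4% of pyruvate kinase reads and did not pass. Uninjured wild type had pkma at 205 and 759 CPM, and injured wild type at 555 and 493 CPM. Uninjured mutants had 215 and 541 CPM, and injured mutants 551 and 570.2 CPM. The uninjured libraries numbered 1 were again low, and wild type uninjured 2 was above every injured library. pkmb took 10.7% and 11.7% of the reads of the step in the uninjured libraries numbered 1, 2.09% and 4.97% in those numbered 2, and 0.641% to 1.86% in the injured libraries.

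Lactate dehydrogenase is built from A subunits, best known from muscle, and B subunits, best known from heart. ldhba gave 62.8% to 71.1% of the reads of ldha and ldhba. In wild-type cord ldhba measured 703 and 703 CPM intact and 860.3 and 922 CPM at 1 wpi. The mutant values were 555 and 714 CPM intact and 988 and 785 CPM at 1 wpi. The injured libraries lay above the uninjured ones without passing, and ldha overlapped, at 277 to 407 CPM uninjured and 402 to 466 CPM injured.

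Of the 30 genes, 12 were higher in all 4 injured than in all 4 uninjured libraries, a pattern shown by 21.3% of all genes, and 2, pgam2 and pkmb, were lower, a pattern shown by 2.44%. The 12 were slc2a1b, hk2, gpia, pfkla, aldoaa, tpi1a, gapdhs, pgk1, pgam1a, eno1a, eno1b and ldhba. This count depends on scaling. With TMM-scaled CPM hk2 alone was higher (11.2% of all genes), and 4 were lower, aldocb and pgam1b besides pgam2 and pkmb (7.81%). Mitochondrial transcripts took 21.5% to 32.8% of the reads in the uninjured and 12.6% to 13.3% in the injured libraries. The 10 oligodendrocyte and myelin markers summed to 88904 to 134435 CPM in the uninjured and 44329 to 50855 CPM in the injured libraries. Of these markers 4 were called higher and 1 lower averaged over genotypes, against 12.2% of all genes called. The part of mitochondrial or myelin transcripts in the scaling was not tested.

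The isozymes were also counted by the mammalian tissue they are best known from, beside the 12.2% of all genes called averaged over genotypes, and no difference between these lists was tested. Of the 8 muscle isozyme genes, 7 were tested, and 1 rose (hk2) and 1 fell (pgam2), with a relative median of -0.06. Of the 10 brain isozyme genes and transporters, 1 rose (slc2a1b) and 0 fell, with a relative median of 0.20. The remaining 14 genes, 13 of them tested, had 2 called higher (gpia, eno1b) and 1 called lower (pkmb), with a relative median of 0.20.

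Levels of pgam2, pkmb, pfkma and aldoab, picked out after their values were seen, lay in nearly the same order as muscle transcripts. From the library with the lowest to the one with the highest muscle marker sum, wild type 1 wpi 1 and wild type uninjured 1, pgam2 went from 2.44 to 35.0 CPM, pkmb from 5.53 to 24.6 CPM, pfkma from 0.697 to 7.05 CPM and aldoab from 13.2 to 34.1 CPM. pkmb is not in the muscle list but among the broad or unassigned isozymes. Of the muscle list, eno3, aldoaa and ldha did not share this order. eno3 was at 312 and 335 CPM in these 2 libraries, aldoaa at 581 and 413 CPM and ldha at 466 and 374 CPM. hk2, also in the muscle list, ran the other way, at 24.4 and 4.19 CPM. With the mean log2(CPM + 1) of the muscle markers as a covariate in the fit, no gene of the set was called in any injury comparison. The muscle marker sums of all uninjured libraries lay above those of all injured ones. This fit therefore cannot separate muscle content from injury, and lost calls were likely whatever the part of muscle. The averaged change before the shift was then -0.53 for pgam2 and -1.38 for pkmb, against -1.87 and -1.74 without the covariate. That of hk2 was 2.32 against 2.27, at an adjusted p of 0.118.

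Another group, also picked out after its values were seen, was low in the libraries low in neuron markers. hk1, pfkpa, pfkpb, pkma and eno2 each had their 2 lowest values in mutant uninjured 1 and wild type uninjured 1, the libraries with the 2 lowest neuron marker sums (5752 and 9385 CPM against 10305 CPM or more in the rest). This was not particular to them: 16 of the 30 genes, gpia, aldocb, gapdhs, pgk1 and eno1a included, had their 2 lowest values there, beside 34.7% of all genes tested. Nor did it hold for all genes of the brain list: pgam1a, pgam1b, aldoca and slc2a1a did not share it. pkma is not in the brain list but among the broad or unassigned isozymes. The TMM factors of these 2 libraries, 0.677 and 0.832, also lay below the 1.00 to 1.19 of the others. With TMM-scaled CPM 7 of the 30 genes kept the pattern, beside 10.5% of all genes, and hk1 and eno2 were not among them. Without these 2 libraries the 4 injured libraries gave 58.0, 54.6, 55.9 and 64.0 CPM of hk1 beside 66.1 and 58.9 CPM in the remaining uninjured ones, which overlap. Without both libraries more genes of the set were called for injury, but the share of all genes called in that fit was not set beside them. The part of neuron or muscle content in the injury results was not tested beyond these fits.

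**Figure D4:**
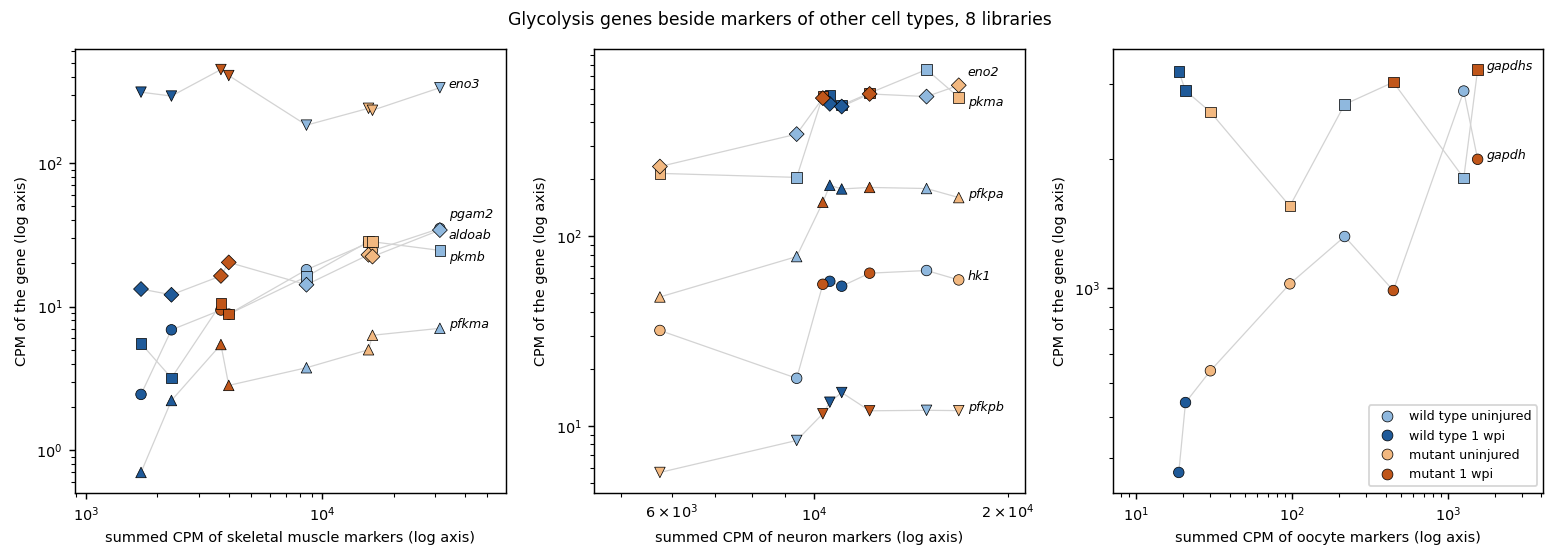
CPM of glycolysis genes (log axis) against the summed CPM of skeletal muscle, neuron and oocyte markers (log axes) in 8 libraries, coloured by group, with a grey line joining the points of a gene in order of the sum. pgam2 goes from 2.44 to 35.0 CPM between the lowest and highest muscle sum while eno3 stays between 184 and 449 CPM, hk1 and pkma are low at the 2 lowest neuron sums, and gapdh ranges from 370.0 to 2882 CPM.

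Mutant and wild type were compared within each injury state, to ask whether loss of mstnb alters the pathway. mstnb itself, which did not overlap between genotypes, was not called in limma (adjusted p = 0.421 uninjured and 0.478 at 1 wpi). edgeR did not call it either (adjusted p = 0.764 and 0.296), whereas DESeq2 did (adjusted p = 0.000781 and 0.00129). A gene that was not called in limma may therefore still differ between genotypes. Shares of all genes at an unadjusted p under 0.05 were not counted, here or below, so such counts do not set these genes apart. In uninjured cord 0 of 30 genes passed, as did 0% of all genes, and 1 gene had an unadjusted p under 0.05. That gene was gapdh, with a fitted log2 difference of -1.27 ± 0.43 (SE, limma adjusted p = 0.943), which was called lower in mutants without wild type uninjured 2 (adjusted p = 0.0269). The median difference of the 30 genes was -0.11, beside -0.06 for all genes. With edgeR and with DESeq2 on the reads recovered from the CPM, 0 of 30 passed as well.

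At 1 wpi 0 of 30 genes passed, against 0.267% of all genes. At an unadjusted p under 0.05, where no share of all genes was counted, there were 3. gapdh was higher in injured mutants by 1.65 ± 0.43 (fitted log2 ± SE, limma adjusted p = 0.364), pkmb by 1.03 ± 0.38 and pfkma by 1.09 ± 0.48 (adjusted p = 1.00 for both). Each mutant value of these 3 genes at 1 wpi lay above each wild-type value, as for other genes of the set, pgam2 and eno3 among them, while pfkpb lay below. The 3 were picked by their p in this comparison, so this order gives no further support, and the share of all genes was not counted. The muscle marker sums were also higher in mutants, at 3713 and 4009 against 1703 and 2292 CPM, and their part was not tested. gapdh was called without wild type uninjured 1 or 2 (adjusted p = 0.046 and 0.0409), libraries that enter only through the shared estimate of the spread. edgeR and DESeq2 called 0 of 30.

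Averaged over injury states 0 of 30 genes passed in limma, against 0.0209% of all genes, and 2 had an unadjusted p under 0.05. The smallest p was that of pkmb, higher in mutants by 0.75 ± 0.27 (fitted log2 ± SE, adjusted p = 1.00). For the interaction, the mutant injury change less the wild-type one, 0 of 30 passed in limma, against 0.565% of all genes, with gapdh alone under an unadjusted p of 0.05. edgeR called 0 of 30 in both comparisons, and DESeq2 called 0 for genotype and 1 for the interaction, gapdh (adjusted p = 0.00733). The interaction of hk2, which rose in both genotypes, did not pass.

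The authors' deposited tables hold a test of their own for 3 of these comparisons, at an adjusted p under 0.05 over 25309 entries. For injury in wild type the authors' deposited table called 18 of the 32 genes, 7 higher and 11 lower, against 35.2% of all entries. For genotype in uninjured cord the authors' deposited table called 9, 4 higher and 5 lower, against 21.6%, and at 1 wpi it called 6, all higher in mutants, against 5.76%. Those called at 1 wpi were pfklb, pfkma, gapdh, pgam2, eno3 and pkmb. In the authors' deposited table of injury in wild type hk2 had a log2 change of 2.29, pgam2 of -2.90, pkmb of -2.59 and gapdh of -2.42. That table also called aldocb (-0.69) and eno2 (-0.20), but not gapdhs, pkma or ldhba. At 1 wpi the authors' deposited table gave gapdh a log2 difference of 1.57 between mutant and wild type, with an adjusted p of 2.16e-10. The comparisons share groups, so their results are not independent of each other.

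Genes around the pathway were read from lists of 127 symbols that hold other transporters and isozymes, the control of fructose bisphosphate, lactate and pyruvate transport, pyruvate dehydrogenase and its kinases, gluconeogenesis, glycogen, the pentose phosphate pathway, the glycerol phosphate shuttle and the HIF factors. Of these symbols 111 were found and 104 tested. In wild type 4 of the 104 rose and 0 fell, against 3.86% of all genes called. In mutants 5 rose and 0 fell, against 3.19%. Averaged over genotypes 11 rose and 1 fell, against 12.2%, while 0 passed for genotype or for the interaction. In those 4 comparisons 2 to 5 of the 104 had an unadjusted p under 0.05, and edgeR and DESeq2 called 0. For those 4 the shares of all genes called in limma are given above, but no share at an unadjusted p was counted. The injury counts lie near the shares beside them, so they do not set these lists apart from other genes.

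At the entry to the pathway, gck, a hexokinase best known as the glucose sensor of liver and pancreas, stood at 0.494 to 2.69 CPM in the 4 uninjured and 8.59 to 16.6 CPM in the 4 injured libraries. Averaged, gck rose by 2.18 ± 0.38 (relative log2 ± SE, limma adjusted p = 0.00171). slc2a10, the transporter GLUT10, stood at 0.669 to 1.2 CPM uninjured and 6.39 to 9.52 CPM injured and rose by 1.87 ± 0.29 (adjusted p = 0.000783). Both passed in each genotype as well, although these genotype calls, other than that of slc2a10 in wild type, were lost with TMM scaling (highest adjusted p = 0.179), and all 4 were lost without some single libraries (highest adjusted p = 0.365 for gck and 0.257 for slc2a10, both in mutants without mutant 1 wpi 2).

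pfkfb4b, one of the enzymes that set the level of fructose 2,6-bisphosphate, the activator of phosphofructokinase, gave 43.1 and 62.5 CPM in intact wild-type cord against 214 and 175 CPM in transected wild-type cord. Mutant cord gave 42 and 78.7 CPM intact against 209 and 233 CPM transected. All injured libraries were above all uninjured ones, and the averaged rise of 1.59 ± 0.24 passed (relative log2 ± SE, limma adjusted p = 0.000528). In the glycerol phosphate shuttle, which passes electrons from glycolytic NADH to mitochondria, gpd1c went from 4.37 to 7.22 CPM uninjured to 27.6 to 29.7 CPM injured (1.87 ± 0.24, adjusted p = 0.000255) and gpd1l rose by 0.73 ± 0.24. The gpd1l call was lost without any 1 injured library (highest adjusted p = 0.116).

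slc16a3, which encodes the lactate exporter MCT4, went from 22.6 and 16.9 CPM to 34.7 and 29.0 CPM in wild type. In mutants it went from 9.67 and 12.5 CPM to 42.7 and 38.2 CPM. Averaged over genotypes it rose by 0.91 ± 0.23 (relative log2 ± SE, limma adjusted p = 0.00502), a call that held with TMM scaling and without any 1 library (highest adjusted p = 0.0474). Within mutants the rise was 1.42 ± 0.32 (adjusted p = 0.0138), while the wild-type change of 0.38 ± 0.32 did not pass (adjusted p = 0.278), and the difference between the 2 was not among the interactions that passed. The mutant call was lost with TMM scaling (adjusted p = 0.0605) and without mutant uninjured 1, mutant 1 wpi 1 or mutant 1 wpi 2 (highest adjusted p = 0.212).

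Averaged over genotypes, smaller rises were called for the pyruvate dehydrogenase kinases pdk2a (1.14 ± 0.32) and pdk4 (0.74 ± 0.27), which hold pyruvate back from the mitochondrial oxidation. They were also called for the glycogen phosphorylase pygb (1.04 ± 0.27) and for pgd (0.80 ± 0.22) and taldo1 (0.84 ± 0.28) of the pentose phosphate pathway, all on the relative log2 scale. pklr, the pyruvate kinase of liver and red blood cells in mammals, fell by 2.12 ± 0.54. Its highest level, 41.0 CPM in wild type uninjured 1, was in the library with most liver marker transcripts, 6066 CPM against 21.8 to 462 CPM in the others. The 7 erythrocyte markers summed to 1436 to 7569 CPM in the uninjured and 743 to 1066 CPM in the injured libraries. All 7 were called lower averaged over genotypes, against 12.2% of all genes called. The part of liver or erythrocyte transcripts in the fall of pklr was not tested. TMM scaling ended the calls of pklr (adjusted p = 0.0649) and of pdk4 and taldo1 (adjusted p = 0.082 and 0.0591). The calls of pdk2a, pdk4, pgd and taldo1 were lost without wild type 1 wpi 1, wild type 1 wpi 3 or mutant 1 wpi 2, those of pdk2a, pdk4 and taldo1 also without mutant uninjured 1, and those of pdk4 and taldo1 also without mutant 1 wpi 1. The highest adjusted p of these 4 genes was 0.145, for pdk4. The call of pklr was lost without any 1 of 6 libraries, all but wild type uninjured 2 and mutant uninjured 2 (highest adjusted p = 0.231).

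In the lists of HIF factors and of gluconeogenesis 0 of 12 and 0 of 9 tested genes passed in any of the 7 comparisons in limma. Of all genes, 12.2% were called for injury averaged over genotypes and 3.86% or less in each other comparison. With lists this small, 0 calls do not set them apart from other genes. The most abundant HIF gene was hif1ab, an oxygen-regulated subunit of the hypoxia-inducible factor, at 77.3 to 135 CPM uninjured and 128 to 199 CPM injured. The most abundant gluconeogenesis gene was pcxa, a pyruvate carboxylase, at 37.0 to 70.7 and 59.1 to 74.8 CPM. Both ranges overlapped. At an unadjusted p under 0.05, 0 to 2 of the HIF and 0 to 1 of the gluconeogenesis genes passed in a comparison. edgeR called at most 1 and 0, and DESeq2 at most 1 and 2. Shares of all genes were not set beside these counts.

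Zebrafish a and b copies of an enzyme gene are similar in sequence, and the sources used here do not say how reads matching both, or reads of overlapping and antisense genes, were counted. The values of single copies, such as pkma beside pkmb or eno1a beside eno1b, are uncertain to that extent.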

How the data were processed

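RNA-seq reads of 8 zebrafish spinal cord libraries were deposited as 4 tables of the same 25309 entries. The authors deposited CPM per library, and these tables agreed. Per the file headers, they also hold baseMean, a normalized signal, with a log2 fold change, a score (stat) and p-values of the authors' own comparison. Dates stood in place of 16 symbols in 1 table, none of them a gene described here. Dividing by the worth of 1 read gave whole reads, within 0.01 reads, for 100% of the CPM values, and so the depths. The submitters' processing notes name Cuffdiff, Cufflinks and Bowtie2. What each did, and the build, annotation and strandedness, were not given in the sources used here. All 32 symbols were also found in a RefSeq gene table.

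Groups came from the sample titles. limma 3.58.1 (R 4.3.3) with a trended variance was fitted to log2(CPM + 1) of 8 libraries with 4 group means (4 residual degrees of freedom). The genes fitted were those whose mean reached 1 CPM in any group. Low genes change less on the log2(CPM + 1) scale because of the pseudocount. The fit was also run on simulated counts with 1 fixed spread for all genes and libraries and no shift between libraries. That run does not cover libraries that differ as much as these. The 7 contrasts were injury and genotype within each level of the other, both averages, and the interaction. edgeR 4.0.16 and DESeq2 1.42.0 on the recovered counts of the deposited CPM, TMM scaling, pseudocounts of 0.5 and 5, filters, left-out libraries, the libraries compared alone, a replicate block and a skeletal muscle covariate were alternatives. Leaving out both uninjured libraries numbered 1, or the 2 libraries richest in oocyte markers, was added after seeing the data.

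Of the wider lists, 1 gene is not reported here. The genes, lists and tests were chosen with earlier results of these data known. Values are given for genes called in any comparison, for those with a log2 difference of 1 or more, and for the gene with the highest mean CPM of each step. Changes with SE and p are given for called genes, for those past a difference of 1, and, with none called, for the smallest p.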

Additional observations from a re-analysis of the deposited data

How the results depend on the processing

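Calls in 1 genotype rest on 2 libraries a group, and none of those named held under every alternative. The skeletal muscle covariate ended each of them, but muscle markers separated injured from uninjured libraries, so that fit cannot tell muscle content from injury. Fits that left out a library assume that the lone library left varies like the other groups. With 1 library left out in turn, the genes called numbered 0 to 11 for injury in wild type, 0 to 6 for injury in mutants, 4 to 17 for injury averaged and 0 to 0 for genotype averaged. They numbered 0 to 1 for genotype in uninjured cord, for genotype at 1 wpi and for the interaction. For injury in wild type, where 5 were called, only the libraries compared gave 1, edgeR 3, the skeletal muscle covariate 0, leaving out both uninjured libraries numbered 1 gave 9, and leaving out both oocyte-rich libraries 1. For injury in mutants, where 1 was called, TMM scaling, edgeR and the covariate gave 0, a pseudocount of 5 or a filter at 5 CPM gave 2, only the libraries compared and DESeq2 gave 3, and leaving out both uninjured libraries numbered 1 gave 7. For injury averaged, where 6 were called, TMM scaling and edgeR gave 3, the covariate 0, and leaving out both uninjured libraries numbered 1 gave 10. For genotype at 1 wpi, where 0 were called, only the libraries compared gave 1 and so did leaving out both uninjured libraries numbered 1. For the interaction, where 0 were called, the covariate, DESeq2 and leaving out both uninjured libraries numbered 1 each gave 1. The cause of these moves was not tested, beyond the smaller number of libraries where some were left out. The share of all genes called in each alternative was not set beside these counts, so no move can be read as particular to this set.

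Over all alternatives of the genes named with a test, 623 values kept their direction and side of the threshold, 168 kept the direction but were no longer called, 30 were newly called and 5 reversed. All 5 reversals came with the skeletal muscle covariate, which gave slc2a1b -0.55 in wild type, -0.13 in mutants and -0.34 averaged, taldo1 -0.25 and pklr 0.74 averaged, on the log2 scale before the shift. None of these 5 passed, and their cause was not tested.

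The replicate numbers are shared between groups only in the mutant injury and the uninjured genotype comparisons, and no label says that they pair samples. Deviations of same-numbered libraries correlated at 0.199 and 0.299 across genes, which are not independent replicates. With a replicate block, 3 of 30 genes were called for injury in mutants (hk2, pgam2 and pkmb) and 1 for genotype in uninjured cord (gapdh). The share of all genes called with the block was not set beside these counts. No paired analysis was possible for the other comparisons because the columns compared share fewer than 2 numbers.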
